A study of Homo sapiens with 4 samples.

Results

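Neighbouring m6A peaks of opposite direction were the autosomal peaks whose nearest peak of the other direction, in the same pair of libraries, had its summit no more than 50000 bp away. There were 215 such peaks among 4550 on autosomes and 4889 in all. Pair 1 held 126 of them, 70 slow-higher and 56 WT-higher, and pair 2 held 89, of which 49 were slow-higher and 40 WT-higher. A peak is called slow-higher where the library from slow-RNAPII cells was enriched over the WT library, and WT-higher where the WT library was enriched over the slow library. They were chosen by measured values, the direction and the summit position of each peak, so their number and spacing are given as a description and are not tested.

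The study compared human embryonic kidney HEK293 cells that express a slow-elongating, α-amanitin mutant RNA polymerase II (RNAPII) with HEK293 control cells labelled wild type (WT), 2 libraries of each. Both groups received doxycycline (1 µg/ml) over 24 h, followed by 42 h in which α-amanitin (2.5 µg/ml), which blocks RNAPII, was present along with it. Whether the RNAPII of the WT cells resists α-amanitin, and whether a line is a single clone, is not given in the sources used here. RNA was fragmented, bound to an antibody against N6-methyladenosine (m6A) and sequenced, which is known as MeRIP-seq. Each library was set directly against the same-numbered library of the other group, with no input library in the call. The slow libraries kept 698050 and 547402 reads after duplicate removal and the WT libraries 1695246 and 1136611. These were left of 16417503 and 8804552 slow reads and of 20556035 and 15072336 WT reads. The share removed as duplicates was thus 0.96 and 0.94 in the slow and 0.92 and 0.92 in the WT libraries, which limits small peaks. The lists hold no expression levels, so the cell line could not be checked against markers, and the labels do not state if same-group libraries derive from different cultures.

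N6-methyladenosine is laid down on nascent RNA by a writer complex around METTL3 and METTL14, mostly within a short consensus motif. In mRNA it is known to be dense near stop codons and in long internal exons. Reader proteins then act on splicing, export, decay and translation of the marked RNA. The writer meets the transcript while RNAPII is still elongating, and the study asked whether slow elongation changes where the mark is found. A region can enter these lists when its methylation differed, when its transcript level differed, or both. Each call sets a single library against a single library, so counting error can also give a peak, and its part was not tested. The libraries are bulk RNA, so fewer cells carrying an RNA and less of it per cell cannot be told apart. Peaks within 50000 bp of each other may lie in 1 transcript or in several; no hg19 gene annotation was used here, so loci are given by position on hg19.

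Opposite directions were rarely found close together. The peaks described here made up 4.04% of the 1734 autosomal slow-higher peaks and 6.44% of the 870 WT-higher peaks of pair 1. In pair 2 they made up 3.85% of 1273 slow-higher and 5.94% of 673 WT-higher peaks. For comparison, 60.8% and 57.7% of slow-higher peaks in pairs 1 and 2 had another slow-higher summit within the same 50000 bp, and 37.4% and 31.6% of WT-higher peaks had another WT-higher summit there. Most close same-direction neighbours were very close, with 784 and 548 slow-higher and 218 and 148 WT-higher peaks lying within 5000 bp of another of their own list. Against the opposite list, only 3 and 2 slow-higher and 2 and 2 WT-higher peaks lay within 5000 bp. The contrast was smaller further out. From 40000 to 50000 bp, 13 and 9 slow-higher peaks had their nearest opposite summit, and 30 and 22 their nearest slow-higher summit. For WT-higher peaks these counts were 11 and 7 beside 16 and 4, so pair 2 went the other way. The caller takes its local background from up to 10000 bp around a position, so a strong peak of the control library within 5000 bp raises the background of a neighbour; its part in the spacing was not tested.

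**Figure D1:**
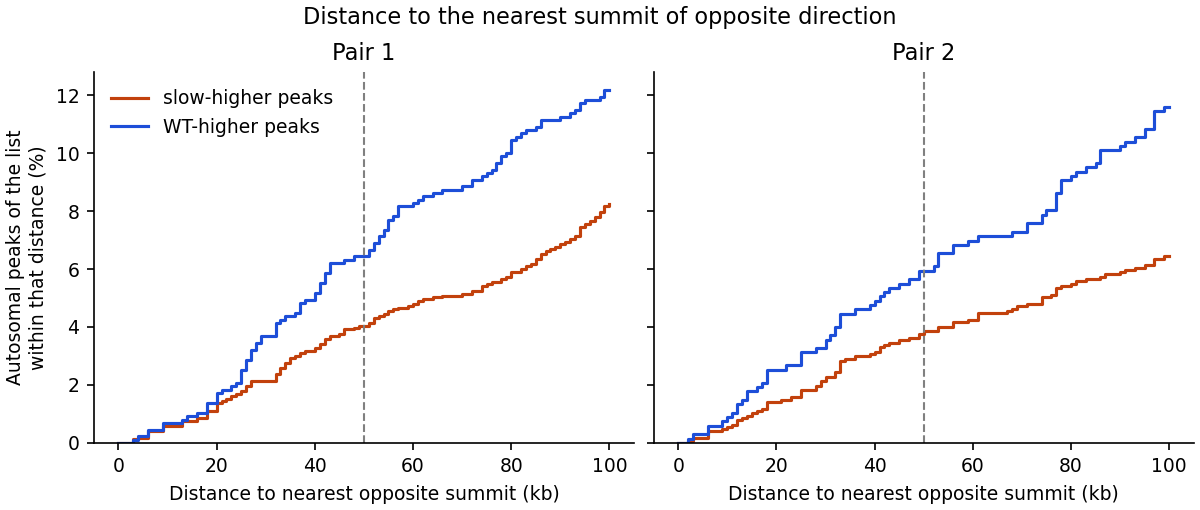
Cumulative share of the autosomal peaks of each list (y axis, percent) against the distance to the nearest summit of opposite direction in the same pair (x axis, kb), for slow-higher and WT-higher peaks in pairs 1 and 2. The dashed line marks 50 kb, where the curves stand at 4.04% and 6.44% in pair 1 and at 3.85% and 5.94% in pair 2 for slow-higher and WT-higher peaks, and they go on rising beyond it.

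Within the limit, the distances were spread widely. The median distance to the nearest opposite summit was 26325.5 bp for slow-higher and 27143 bp for WT-higher members of pair 1, and 27774 bp and 24479 bp in pair 2. The closest summits of opposite direction were 2052 bp apart in pair 1 and 1999 bp apart in pair 2, and both of these came from the same place on chromosome 21. No peaks of opposite direction overlapped or touched, the smallest gap between their edges being 1831 bp in pair 1 and 1809 bp in pair 2. At the limit itself, the slow-higher member of pair 1 with the largest distance lay 48739 bp from its neighbour, and the nearest slow-higher peak left out lay 50282 bp away, with folds of 5.52 and 8.22. In pair 2 the corresponding slow-higher peaks lay at 49324 bp and 52462 bp, with folds of 3.98 and 6.83. The WT-higher peaks on either side of the limit lay at 47683 bp and 50282 bp in pair 1, and at 48666 bp and 51838 bp in pair 2, with WT-over-slow folds of 3.80 and 5.03 and of 4.25 and 8.21.

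Chained through neighbours of opposite direction, the members formed 44 loci in pair 1 and 36 in pair 2, with a median span of 32265 bp and 31845.5 bp. Most were the smallest possible unit, a single slow-higher and a single WT-higher peak, at 24 of 44 and 25 of 36 loci. Slow-higher peaks outnumbered WT-higher peaks at 14 and 7 loci, and WT-higher outnumbered slow-higher peaks at 6 and 2. Along the chromosome, 40 and 33 loci changed direction once, so that all slow-higher peaks stood on one side and all WT-higher peaks on the other. Direction changed more than once at 4 loci of pair 1 and 3 of pair 2. These lay on chromosomes 7, 12, 16 and 19 in pair 1 and on chromosomes 4, 7 and 19 in pair 2.

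Each locus held exactly 1 pair of peaks that were each other's nearest opposite neighbour, and these 80 nearest pairs are used for the order of the directions. The slow-higher summit had the lower coordinate in 19 of 44 nearest pairs of pair 1 (43.2%, exact 95% binomial interval 28.3% to 59.0%) and in 16 of 36 of pair 2 (44.4%, 27.9% to 61.9%). Both intervals, which cover counting error only, include 50%. An exact two-sided sign-flip test of the share against 50% gave p = 0.5, the smallest that 2 pairs allow. Coordinates run along the chromosome and not along transcripts, so this is no order from 5′ to 3′. The difference from 50% was small and not stable in size, at -6.19 percentage points as the mean over the pairs with the 50 kb limit and at -0.446 and -0.892 with limits of 20 kb and 100 kb. Among nearest pairs no more than 20 kb apart, the slow-higher summit came first in 6 of 14 and 9 of 16, and among the wider pairs in 13 of 30 and 7 of 20.

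At 5 loci, peaks of both directions were called again in the same direction in the other pair: on chromosomes 21, 19, 7, 14 and 15. They held 24 of the 126 members of pair 1 and 16 of the 89 members of pair 2. These are 11.4% of the loci of pair 1 (exact 95% interval 3.79% to 24.6%) and 13.9% of those of pair 2 (4.67% to 29.5%). Several of their peaks lay near the caller's limit, a −log10 q of 2. With peaks of a −log10 q of at least 5 only, the chromosome 7 locus alone was left of the 5.

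The locus on chromosome 21 was the tightest. Its slow-higher peak lay at 47706222-47706387 in pair 1, with a summit of 19 slow fragments against a scaled WT background of 1.01 fragments (9.96-fold, slow over WT). In pair 2 the same peak, at 47706239-47706402, had 16 slow fragments against a WT background of 1.44 (6.95-fold), and its summit was 7 bp away from that of pair 1. At 2052 bp before it in pair 1 and 1999 bp in pair 2, the WT-higher peak at 47704240-47704390 had a slow background of 5 fragments and 50 WT fragments in pair 1 (3.6-fold, WT over slow). In pair 2 this peak, at 47704200-47704429, had a slow background of 3 and 39 WT fragments (4.95-fold, WT over slow). The background is the caller's estimate, which can be an average over a wider window and take in fragments of the neighbouring peak, so it is no count of fragments at the summit itself. Here and below, WT fragments are given before scaling, while slow backgrounds are at the depth of the slow library. The folds use WT values scaled to that depth, so WT fragments over slow background do not give the fold. Pair 1 had 2 further slow-higher peaks at this locus, 12.2-fold and 7.56-fold, and pair 2 had a further WT-higher peak that was 6.37-fold higher in WT; none of these 3 was called in the other pair.

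On chromosome 19, from 39881349 to 39944054, slow-higher peaks stood on both sides of a single WT-higher peak. Pair 1 held 6 slow-higher peaks there and pair 2 held 4, and 5 of the 6 and all 4 recurred. The WT-higher peak in the middle had a slow background of 1.41 fragments and 43 WT fragments in pair 1 (7.76-fold, WT over slow), and a background of 1 and 24 WT fragments in pair 2 (6.28-fold). Its summits in the 2 pairs were 11 bp apart. The highest slow-higher fold of the locus, 11.7 with 30 slow fragments, belonged to the peak 8981 bp from the WT-higher summit, and that peak was called in pair 1 only. The slow-higher peaks that recurred were lower in fold, from 2.45 to 5.79 in pair 1 and from 2.81 to 6.43 in pair 2. Their scaled WT backgrounds reached 29.2 and 25 fragments.

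On chromosome 7, from 27183182 to 27238077, the arrangement was the reverse, with WT-higher peaks at both ends and slow-higher peaks between them. The WT-higher peak at the low end had a slow background of 7 fragments and 57 WT fragments in pair 1 (3.06-fold, WT over slow), and of 6 and 45 in pair 2 (3.24-fold). The WT-higher peak at the far end had a slow background of 4 and 55 WT fragments in pair 1 (4.73-fold), and of 1.11 and 51 in pair 2 (12.1-fold). Between them, the slow-higher peak with its summit at 27197270 in pair 1 had 19 slow fragments against a WT background of 0.845 (10.8-fold, slow over WT), and 17 against 0.963 in pair 2 (9.17-fold). The slow-higher peak with its summit at 27196695 in pair 1 was 8.43-fold and 8.04-fold higher in the slow libraries. Pair 1 had 3 more peaks here, a slow-higher and 2 WT-higher ones, that were not called in pair 2. The WT-higher peak at the low end had a −log10 q of only 2.49 and 2.41. With peaks of at least 5 it was lost in both pairs, the locus then began at 27196662 and 27196650 with its closest opposite summits 40402 bp and 40674 bp apart, and the WT-higher side stood at the far end alone.

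The loci on chromosomes 14 and 15 had the WT-higher peak at the lower coordinate in both pairs. On chromosome 14, the slow-higher peak at 29261594-29261768 had 19 slow fragments against a WT background of 1.24 in pair 1 (8.95-fold), and 15 against 1.44 in pair 2 (6.54-fold). Its WT-higher neighbour, with summits 1 bp apart between the pairs, had a slow background of 11 fragments and 79 WT fragments in pair 1 and of 9 and 54 in pair 2. Its folds, WT over slow, were only 2.79 and 2.70, and its −log10 q in pair 2 was 2.09, just above the limit. On chromosome 15, the slow-higher peak at 40616573-40616883 had 60 slow fragments against a WT background of 17.7 in pair 1 (3.26-fold), and 55 against 21.2 in pair 2 (2.52-fold). At 41876 bp before it in pair 1, the WT-higher peak had a slow background of 1 fragment in each pair with 29 and 25 WT fragments (6.47-fold and 6.52-fold, WT over slow). Pair 1 had a further slow-higher peak of 9.60-fold here, which was not called in pair 2.

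**Figure D2:**
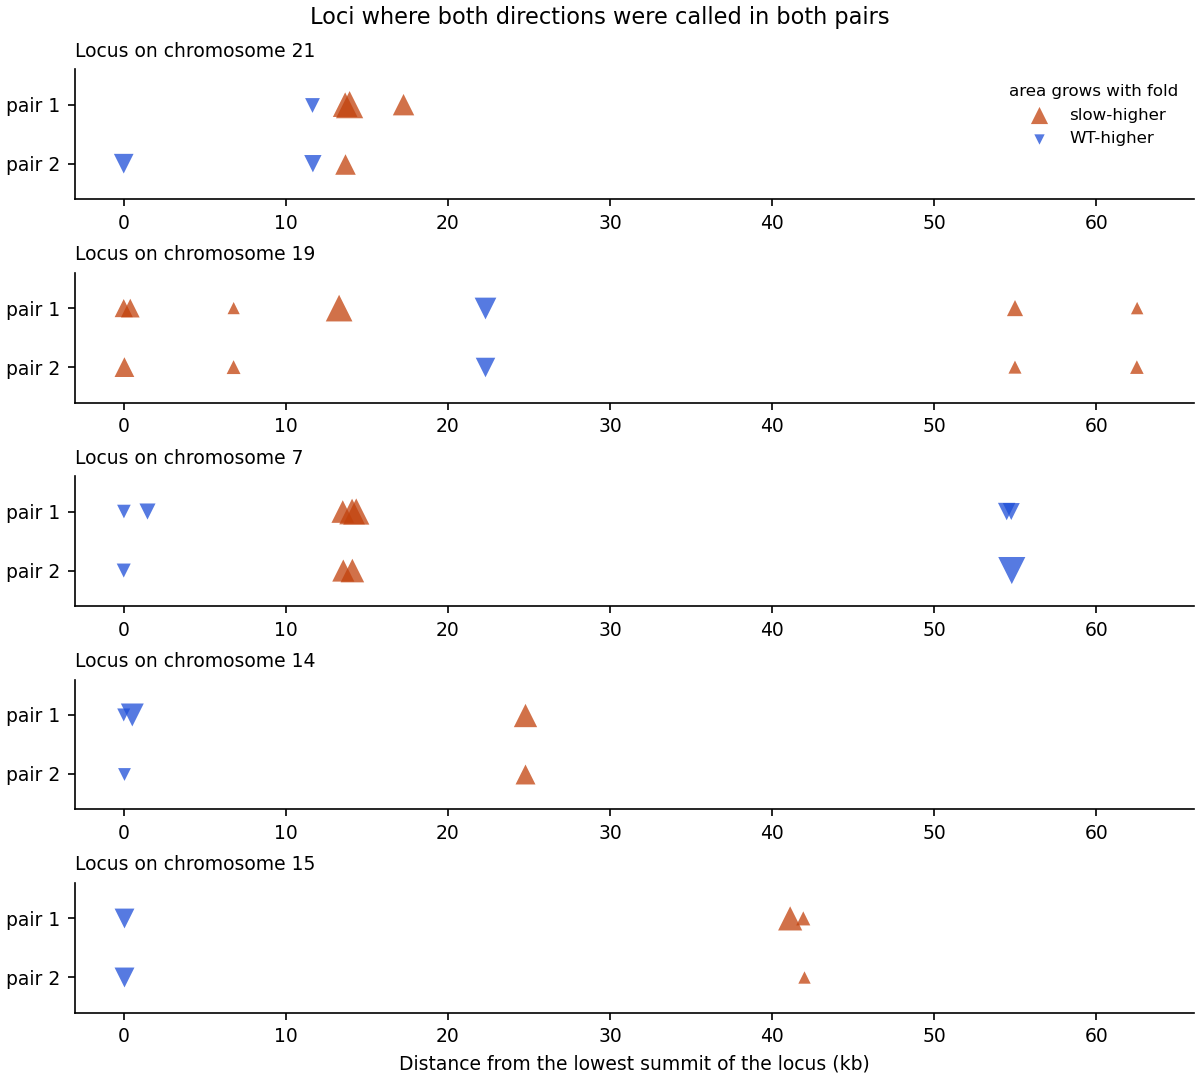
Summits at the 5 loci where both directions were called in both pairs, with the distance from the lowest summit of the locus in kb on the x axis and a row for each pair. Triangles pointing up are slow-higher and triangles pointing down are WT-higher peaks, with an area that grows with the fold of the peak; slow-higher peaks flank the WT-higher peak on chromosome 19, WT-higher peaks flank the slow-higher peaks on chromosome 7, and on chromosomes 21, 14 and 15 the WT-higher side comes first.

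By span, 9 loci of each pair overlapped a locus of the other pair: these 5 and 4 more. At 3 of the 4, on chromosomes 16 (2 loci) and 8, a slow-higher and a WT-higher side were present in the same order in both pairs, yet the peaks on 1 side did not overlap between the pairs. From 3247729 to 3265813 the WT-higher peak recurred, at 12.3-fold and 7.22-fold (WT over slow), with 30 and 15 WT fragments, while the slow-higher peaks of the pairs, of at most 8 slow fragments, did not overlap. From 2954835 to 2999037, both slow-higher peaks of pair 1 recurred, but the WT-higher peak lay at a different place in pair 2. On chromosome 8, both slow-higher peaks of the locus from 144776641 to 144809246 recurred, and the WT-higher summits of the pairs were 144809145 and 144810111, less than 1 kb apart without overlap. On chromosome 12, from 58114584 to 58139658, a slow-higher peak recurred at 6.87-fold and 13.9-fold, and its nearest WT-higher peak lay on the low side in pair 1 and on the high side in pair 2, so that the order was not kept.

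At none of the other closest nearest pairs did both peaks recur. Second in pair 1 was a locus on chromosome 1, where the slow-higher peak at 227923394-227923532 was 7.18-fold higher with 18 slow fragments and the WT-higher peak, 3150 bp before it, was 5.50-fold higher in WT with 51 WT fragments; the WT-higher peak recurred and the slow-higher peak did not. On chromosome 17, the slow-higher peak at 7287209-7287397 was 8.91-fold and the WT-higher peak 5525 bp after it 6.53-fold. On chromosome 12 the distance was 5563 bp, with folds of 3.59 for the slow-higher and 9.59 for the WT-higher peak. On chromosome 6 it was 8185 bp, with folds of 4.96 and 7.71 in that order. Neither peak of these nearest pairs on chromosomes 17, 12 and 6 recurred. In pair 2 the second closest pair lay on chromosome 6, where the slow-higher peak at 1608956-1609100 had 36 slow fragments against a WT background of 7.22 (4.50-fold) and the WT-higher peak 2350 bp after it had a slow background of 18 and 133 WT fragments (3.42-fold). The 133 fragments were the most at any WT-higher member. Next came chromosome 6 again, at 29685456-29690730, with 5024 bp between summits, chromosome 5 with 5852 bp, and chromosome 12 with 8820 bp. Of these peaks of pair 2, the slow-higher ones at 1608956-1609100 and on chromosome 5 recurred. The WT-higher peak on chromosome 12 also recurred, and the rest did not.

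No nearest pair had both folds at 10 or more, which for 0 of 44 allows a share of up to 6.82% in pair 1 and for 0 of 36 up to 8.33% in pair 2. Folds this high were a minority everywhere. In pair 1, 18.9% of autosomal peaks called slow-higher reached them, against 11.4% of those called WT-higher. The same shares in pair 2 were 21.6% and 11.3%. The count of 0 therefore does not by itself set the nearest pairs apart. Both folds were at least 5 in 27 and 17 nearest pairs. The median fold of the slow-higher peak was 6.31 and 6.07 and that of the WT-higher peak 6.37 and 6.03. Neither direction was the stronger as a rule: the slow-higher peak had the higher fold in 25 of 44 and 17 of 36. The WT-higher summit held more fragments than the slow-higher summit in 37 of 44 and 29 of 36 nearest pairs, or in 25 and 22 after scaling to the depth of the slow library. The WT libraries were 2.43 and 2.08 times as deep as the slow libraries after duplicate removal.

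The nearest pairs with the highest lower fold in pair 1 were these. On chromosome 17, the slow-higher peak at 37879522-37879639 was 8.95-fold, and the WT-higher peak 36269 bp after it was 11.6-fold and the first of 4 WT-higher peaks, of which 3 recurred. The chromosome 14 locus already described followed, through a second WT-higher peak of 8.66-fold that was called in pair 1 only. A further locus on chromosome 14 paired a slow-higher peak at 78227106-78227456 of 12.0-fold with a WT-higher peak of 8.07-fold, 37750 bp before it. On chromosome 15, a slow-higher peak of 7 fragments at 96902575-96902714 (7.77-fold) stood 25175 bp beyond a run of 4 WT-higher peaks that all recurred, the nearest being 10.0-fold with 95 WT fragments. The last of the 5 was the chromosome 19 locus, through its 11.7-fold slow-higher and 7.76-fold WT-higher peaks. In pair 2 the highest lower fold, 8.10, was that of the slow-higher peak at 29685456-29685684 on chromosome 6, beside a WT-higher peak of 12.1-fold. The other 4 had folds of 10.7 and 8.07 on chromosome 19 near 58281043, of 7.70 and 8.49 on chromosome 16 near 2955828, of 7.03 and 7.06 on chromosome 7 near 1094579, and of 8.36 and 6.75 on chromosome 19 near 48972481, slow-higher first. In none of these 10 nearest pairs did both peaks recur.

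**Figure D3:**
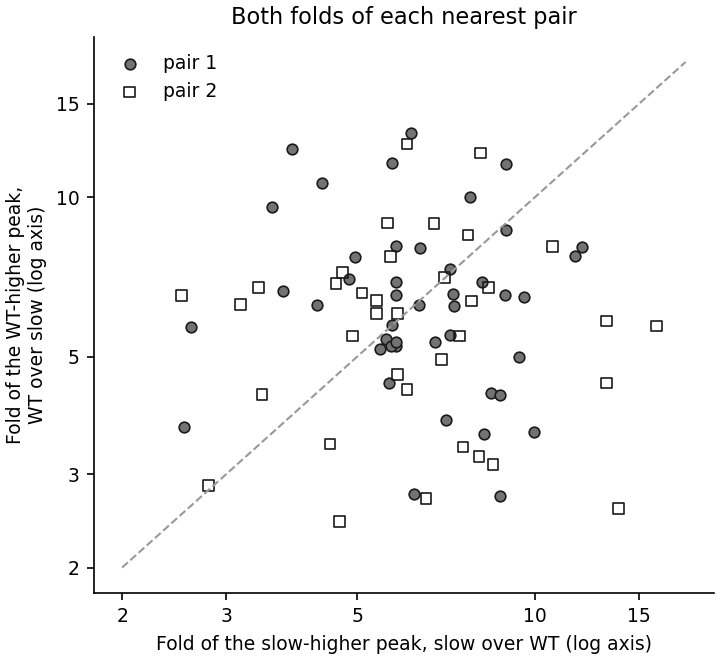
Fold of the slow-higher peak (x axis, slow over WT, log axis) against the fold of its nearest WT-higher peak (y axis, WT over slow, log axis) for the 44 nearest pairs of pair 1 and the 36 of pair 2. Points lie on both sides of the dashed line of equal folds, with 25 and 17 below it, and none has both folds at 10 or more. Most autosomal peaks of each list also stayed below a fold of 10.

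By number of members, the chromosome 19 and chromosome 7 loci with 7 peaks each were the largest of pair 1, followed by chromosome 6 from 3273285 to 3308301 with a WT-higher peak and 5 slow-higher peaks, of which 3 recurred. In pair 2 the chromosome 19 locus held 5 peaks, and 4 loci held 4 peaks each: that on chromosome 7, that on chromosome 16 from 2954715, and further ones on chromosome 1 from 1342743 to 1375859 and on chromosome 4. The chromosome 4 locus, from 1205877 to 1273068, alternated from WT-higher to slow-higher, WT-higher and slow-higher over 67192 bp, the only locus of either pair with 3 changes of direction. Of its 4 peaks only a slow-higher one recurred.

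Members were spread unevenly over the chromosomes. Chromosome 19 had the most, 16 in pair 1 and 19 in pair 2, which is 12.7% and 21.3% of the members beside 12.8% and 15.3% of all autosomal peaks. Chromosome 16 held 11.9% and 11.2% of the members and 5.41% and 4.88% of the peaks. Chromosome 6 held 11.1% and 10.1% of the members and 5.30% and 5.14% of the peaks. Chromosome 20 had none among 94 and 66 peaks, which allows a share of up to 3.19% and 4.55%. Peaks of a locus share their surroundings, so these counts rest on 5 and 8 loci on chromosome 19, 5 and 4 on chromosome 16, and 4 and 4 on chromosome 6.

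Median width hardly set the members apart. Their median width was 143 bp and 161 bp for slow-higher members of pairs 1 and 2, beside 151 bp and 163 bp for the other slow-higher autosomal peaks. For WT-higher members it was 177 bp and 176 bp, beside 177 bp and 175 bp. The mean difference over the pairs was -5.0 ± 4.24 bp for slow-higher peaks (SD, n = 2; exact sign-flip test, two-sided p = 0.5, the smallest possible) and 0.5 ± 0.707 bp for WT-higher peaks (exact sign-flip test, p = 1). The caller cannot report a peak narrower than its fragment length, which was 116 bp and 124 bp for the slow-higher lists and 141 bp and 139 bp for the WT-higher lists, so widths of the directions cannot be set against each other. Between 25% and 35.7% of the members of each list were within 10 bp of that minimum, beside 24.5% to 31.1% of the other peaks. Broad peaks were few: 6 of the 215 members were 400 bp or wider, 4 WT-higher peaks of pair 1 and 2 slow-higher peaks of pair 2. Among all autosomal peaks of pairs 1 and 2, 121 of 1734 and 100 of 1273 slow-higher peaks were that wide. For WT-higher peaks the counts were 27 of 870 and 26 of 673. Broad slow-higher peaks were thus scarcer among members than in their lists, at 0 of 70 and 2 of 49.

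In both pairs, WT-higher members had a higher median of WT fragments than other WT-higher peaks and a higher median slow background, although a comparison over 2 pairs cannot pass a test. The median at the summit was 31 and 35.5 WT fragments for members of pairs 1 and 2, beside 26 and 24 for the rest. The mean difference was 8.25 ± 4.60 fragments (SD, n = 2; exact sign-flip test, two-sided p = 0.5, the smallest possible). The slow background at these members had a median of 1 and 1.94 fragments, beside 0.282 and 0.570 at the other WT-higher peaks. It was under 1 fragment at 50% and 35% of the members and at 65.1% and 60.7% of the others. Slow-higher members did not show this in both pairs, with medians of 12 and 13 slow fragments beside 14 and 11 at other slow-higher peaks, and scaled WT backgrounds of 0.442 and 0.555 beside 0.573 and 0.478.

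Folds come from the contrast that chose the members and are given as a description. The median fold was 6.21 and 6.07 for slow-higher members of pairs 1 and 2, beside 6.68 and 6.86 for other slow-higher peaks. For WT-higher members it was 6.26 and 6.16, beside 6.92 and 7.06. The highest fold of a member was 12.2 and 16.6 among slow-higher and 13.5 and 12.6 among WT-higher members, while folds up to 41.2 and 63.4, and 26.2 and 28, were found among the other peaks. A fold of at least 10 was reached by 8.57% and 12.2% of slow-higher members, where the share over all autosomal slow-higher peaks was 18.9% and 21.6%. For WT-higher members it was 14.3% and 7.50%, against 11.4% and 11.3% overall. Dense stretches of 10 or more chained slow-higher peaks held 124 and 139 autosomal slow-higher peaks and 0 members, which allows up to 2.42% and 2.16%. Peaks of a stretch share their surroundings and are not separate trials, so these limits are too tight.

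**Figure D4:**
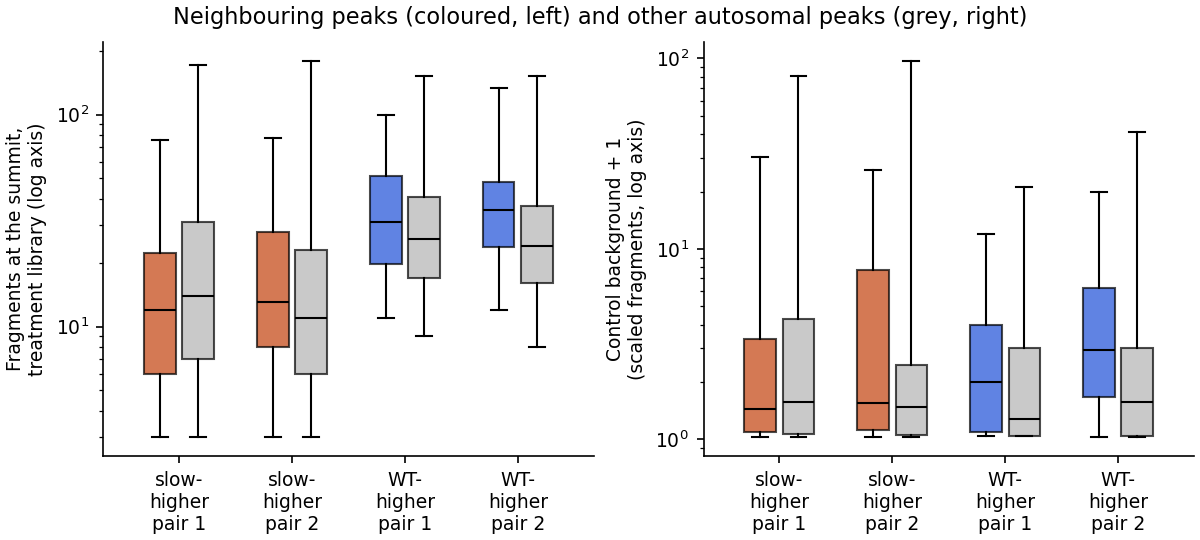
Fragments at the summit in the treatment library (left, log axis) and control background plus 1 in scaled fragments (right, log axis) for the neighbouring peaks (coloured) and the other autosomal peaks of the same list (grey). Boxes span the quartiles with a line at the median and whiskers reach the lowest and highest value; the medians and upper quartiles of the WT-higher members of both pairs lie above those of the other WT-higher peaks in both panels, while the highest values belong to the other peaks, with medians of 31 and 35.5 against 26 and 24 fragments.

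The shares of members found again in the other pair had exact intervals that include the share over all autosomal peaks of their list. Of the slow-higher members, 27 of 70 in pair 1 (38.6%, exact 95% interval 27.2% to 51.0%) and 30 of 49 in pair 2 (61.2%, 46.2% to 74.8%) were called again as slow-higher across pairs. Over all autosomal slow-higher peaks the shares were 43.4% and 62.5%. Of the WT-higher members, 19 of 56 (33.9%, 21.8% to 47.8%) and 11 of 40 (27.5%, 14.6% to 43.9%) recurred, where 29.8% and 38.2% of all autosomal WT-higher peaks did. Members minus other peaks gave a mean difference of -3.17 ± 2.67 percentage points for slow-higher peaks (SD, n = 2; exact sign-flip test, two-sided p = 0.5, the smallest possible) and -3.46 ± 11.2 for WT-higher peaks, where the pairs went in opposite directions (exact sign-flip test, p = 1). With a limit of 20 kb the slow-higher difference was -10.7 percentage points. Among the 215 members, 0 overlapped an opposite peak across pairs, and a count of 0 allows up to 1.40%. The count was also 0 over all autosomal peaks of each list, so it does not set the members apart.

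Recurrence by overlap brings summits close by construction. The median shift between the summits of the pairs was 18 bp and 13.5 bp for slow-higher and 17 bp and 12 bp for WT-higher members of pairs 1 and 2, with the largest shift at 523 bp. The summits were within 30 bp for 16 of 27 and 19 of 30 recurring slow-higher members and for 12 of 19 and 7 of 11 WT-higher ones. Recurring slow-higher members had medians of 19 and 20.5 slow fragments and the others 8 and 8, a split also seen among the remaining slow-higher peaks, at 20 and 17 against 10 and 6. For WT-higher members the medians were 45 and 39 WT fragments where they recurred and 28 and 33 where they did not. The remaining WT-higher peaks showed this split as well, at 36 and 26.5 against 23 and 23. A member that did not recur was not called from those libraries, which does not measure its absence there. Of the members that did not recur, 12 of 43 and 6 of 19 slow-higher and 7 of 37 and 2 of 29 WT-higher ones had a same-direction summit of the other pair within 5000 bp. Neither these counts nor the summit shifts were computed for the other peaks, so they do not set the members apart.

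A member's own nearest opposite peak recurred for 20 of 70 and 14 of 49 slow-higher members (28.6% in each pair) and for 13 of 56 (23.2%) and 22 of 40 (55%) WT-higher members. Over all autosomal peaks, 29.8% and 38.2% of WT-higher and 43.4% and 62.5% of slow-higher peaks recurred, so the members' shares were no higher. Members of a locus can share the same nearest opposite peak, so these counts are not of separate peaks. Counting any opposite summit gave the members higher shares than counting their own nearest opposite peak. Of the slow-higher members, 51.4% in pair 1 and 42.9% in pair 2 had a WT-higher summit of the other pair within 50000 bp, beside 2.34% and 1.55% of the other slow-higher peaks. Of the WT-higher members, 42.9% and 70% had a slow-higher summit of the other pair there, beside 1.23% and 4.42% of the other WT-higher peaks. Over all autosomal peaks of these lists, in the same order, the shares were 4.33%, 3.14%, 3.91% and 8.32%. The gap between members and other peaks follows in large part from the rule, since only members have an opposite peak in reach that could be called again, and it is not tested. Their own nearest opposite peak recurred for 20 of these 36 and 14 of these 21 slow-higher members, and for 13 of 24 and 22 of 28 WT-higher ones. For the remaining 16, 7, 11 and 6 it did not, and another summit of that direction lay within the limit. Both the member itself and an opposite neighbour were found in the other pair for 15 of 70 and 14 of 49 slow-higher members and for 7 of 56 and 7 of 40 WT-higher members.

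**Figure D5:**
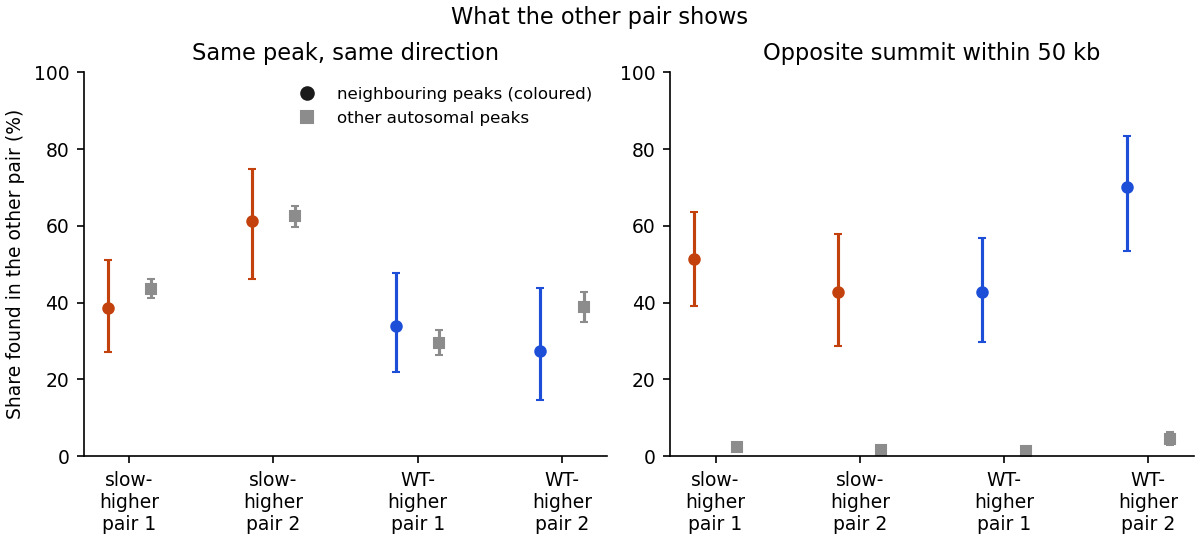
Share of peaks (y axis, percent) found in the other pair in the same direction by overlap (left), and share with a summit of opposite direction of the other pair within 50 kb (right), for the neighbouring peaks (coloured circles) and the other autosomal peaks of each list (grey squares). Bars are exact 95% binomial intervals and cover counting error only; they overlap between members and other peaks in every list on the left, while on the right the members stand at 42.9% to 70% and the other peaks at 1.23% to 4.42%.

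At the level of loci, both directions recurred at 5 of 44 in pair 1 and 5 of 36 in pair 2. Only slow-higher peaks recurred at 12 and 16 loci and only WT-higher peaks at 8 and 5. At 19 and 10 loci, neither direction was called again by overlap. Most of the 80 loci therefore rest, for at least 1 of their directions, on a call in a single pair of libraries. Calls in a single pair were common throughout the lists. Among autosomal peaks called WT-higher, 29.8% recurred from pair 1 and 38.2% from pair 2. Those called slow-higher recurred at 43.4% and 62.5%. How often both directions would recur at a locus, given these shares, was not computed, so the locus counts do not set the members apart.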

How the data were processed

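The data are 4 peak lists from 4 m6A-immunoprecipitated HEK293 libraries. TopHat2 and hg19 are named in the submitters' processing notes, without an aligner version. MACS 2.1.1.20160309 made the lists, per the file headers, with a q limit of 0.01, comparing single IP libraries of equal number between the groups in both directions, with reads of 65 bp, at most 1 read per position and strand, and background windows of 1000 and 10000 bp. The deposited pileup is a coverage signal at the summit; the larger library was scaled to the smaller, and undoing this gave whole WT fragments within 0.05 at each of the 915 and 707 peaks called WT-higher. The authors' fold ratio includes the caller's pseudocount of 1, from which the background was computed. The deposited p-values and q-values are −log10 values whose column names were lost, identified by column order and range. Folds and pileups are the authors' values, with no error of their own.

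Members were autosomal peaks with the nearest opposite summit of the same pair within 50000 bp. Loci are members chained through opposite neighbours; recurrence means at least 1 bp of overlap with a same-direction peak of the other pair. Shares carry exact (Clopper-Pearson) 95% intervals, and the limit beside a count of 0 is 3 counts of the total. Reads are not independent molecules, so both cover counting error only. Differences from other autosomal peaks were tested with exact two-sided sign-flip tests over the 2 pairs, which cannot give p below 0.5. Loci named are those recurring in both directions, the 5 closest nearest pairs, the 5 with the highest lower fold and the 3 with most members in each pair; the 4 loci shared by span and the peaks named beyond these were chosen after their values were seen. Members, lists and rules were chosen with earlier results of these data known. The neighbour and locus rules were tested on simulated data. Alternatives were the distance limit, edges in place of summits, a −log10 q of at least 5, no dense stretches, stricter overlap, and each pair left out. Python 3.11.15, NumPy 2.4.6, pandas 2.3.3, SciPy 1.17.1 and Matplotlib 3.10.9 were used.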

Additional observations from a re-analysis of the deposited data

How the results depend on the processing

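Of 109 values recomputed for 15 results under 9 alternatives, 8 changed sign and 25 others moved beyond the spread between pairs, to 0, or, for counts, beyond 1.5 times. For tested differences the other 76 are judged on direction alone, and some changed in size. Values are means over the pairs. With a limit of 20 kb, the member share was 1.40% (slow-higher) and 2.13% (WT-higher), their median distances 12070.8 bp and 12515.5 bp, and members minus other peaks differed in fold by -0.239 (slow-higher) and -0.556 (WT-higher), in slow-higher summit fragments by 4.0, in WT-higher width by -5.25 bp and in WT-higher recurrence by 0.329 percentage points; 3 loci recurred in both directions. Over all alternatives, slow-higher recurrence differed by -10.7 (20 kb) to 1.56 percentage points (-3.17 at 50 kb) and the order of directions from 50% by -6.82 to -0.446 (20 kb; -0.892 at 100 kb and -3.59 at the stricter q; -6.19 at 50 kb). With 100 kb, the shares were 7.34% and 11.9%, the distances 45491.2 bp and 45626 bp, the fold differences 0.169 and -0.316, the WT-higher recurrence difference 0.367 percentage points, and 11 loci recurred. Restricted to −log10 q values of 5 or more, the shares were 2.24% and 4.24%, the distances 28527.2 bp and 28643.2 bp, the fold differences 0.179 and -0.475, and 1 locus recurred, that on chromosome 7. Without dense stretches, the slow-higher share was 4.33%, and slow-higher members minus other peaks differed by 1.0 bp in width and 1.56 percentage points in recurrence, since the stretches removed held no member. Leaving out either pair gave WT-higher differences of 0.0 to 1.0 bp in width and -11.4 to 4.44 percentage points in recurrence; loci recurring in both pairs have no value then. Shorter and longer limits change which peaks are members by construction, and the cause of the other changes was not tested. With nearest edges, 50% reciprocal overlap or summits within 100 bp, the recurring loci numbered 5 in each pair. No paired analysis was possible because each deposited list already sets same-numbered libraries against each other, so no fit without the pairing exists beside which a replicate block could be placed. Depth limits the small peaks: slow-higher members had as few as 3 slow fragments.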

Other observations

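Outside the autosomes, opposite directions lay within 50000 bp of each other at a single place, on chromosome X in pair 2. A slow-higher peak at 39968681-39968867 (5.66-fold, 5 slow fragments) had 2 WT-higher peaks of 7.29-fold and 6.92-fold (WT over slow, with 32 and 41 WT fragments) at 34634 bp and 46627 bp before it, and none of the 3 was called in pair 1. In pair 1, 0 of 76 slow-higher and 0 of 45 WT-higher peaks on chromosome X had such a neighbour, which allows shares of up to 3.95% and 6.67%, and the closest opposite summits were 53293 bp apart.

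With a limit of 100 kb, a locus on chromosome 14, from 23512230 to 23591800 in pair 1, also held both directions in both pairs, with 9 peaks in pair 1 and 6 in pair 2. Its nearest opposite summits were 71130 bp and 73560 bp apart, beyond the limit used for the loci described above.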
